A study of Mus musculus with 4 samples.

Results

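The genes examined were the nuclear genes of the mitochondrial respiratory chain in dorsal skin treated with imiquimod (IMQ). They were chosen by symbol, as every gene whose name starts with Nduf, Uqcr, Cox4i, Cox5, Cox6, Cox7, Cox8 or Atp5, together with *Sdha*, *Sdhb*, *Sdhc* and *Sdhd*. Of 92 such symbols, 90 had a mean of at least 1 FPKM over the 4 libraries and were kept, out of 24346 genes in the files. FPKM counts sequenced fragments relative to the length of a gene's exons and to the mapped fragments of the library. *Cox7b2* and *Cox8c*, subunits known from testis, were listed at 0 in every library and were left out. *Cox4i2*, the member nearest the limit, had a mean of 1.18 FPKM.

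The respiratory chain passes electrons from NADH (at complex I) and from succinate (at complex II) through complex III to complex IV, where oxygen is reduced. Complexes I, III and IV pump protons across the inner mitochondrial membrane, and complex V uses the returning protons to make ATP. Most subunits are encoded in the nucleus and imported, and a few hydrophobic ones are encoded in mitochondrial DNA. In skin, keratinocytes, sebocytes, fibroblasts and fat cells hold the complexes, and the thin muscle sheet under mouse dorsal skin is rich in them and uses its own isoforms of some complex IV subunits.

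Male C57BL/6 mice received a NASH diet (high in fat, cholesterol and sucrose, with bile salt) from 8 weeks of age for 3 weeks, either without 7-ketocholesterol (Cont-IMQ group, 2 libraries) or with added 7-ketocholesterol (7KC), an oxidized cholesterol (7KC-IMQ group, 2 libraries). All 4 skins were then treated with IMQ cream, which induces psoriasis-like dermatitis, for 1 day. Every group thus carries both the NASH diet and IMQ, and skin without IMQ is not part of the comparison. The labels do not say whether each library is a separate mouse, so p-values measure the spread between these libraries only.

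Summed over genes, the libraries held 651015 and 630272 FPKM in Cont-IMQ skin and 654666 and 702218 FPKM in 7KC-IMQ skin, and the depth estimated from the low values was 14720000 to 15980000 mapped reads. Keratinocyte markers (7 genes in the files, among them *Krt14*) summed to 16170 to 24110 FPKM and dermal fibroblast markers (6 genes) to 2446 to 3406 FPKM, none of them listed at 0 throughout. Cont-IMQ replicate 2 stood apart in the markers of growing hair follicles (12 genes), with 1540 FPKM in sum against 118.5 in Cont-IMQ replicate 1 and 445.7 and 393.1 in 7KC-IMQ replicates 1 and 2. It also had the lowest keratinocyte sum (16170 FPKM). Between the groups, neutrophil markers (6 genes) summed to 18.5 and 21.9 FPKM in Cont-IMQ against 28.6 and 31.4 FPKM in 7KC-IMQ skin, and macrophage markers (5 genes) to 342 and 380 against 310 and 304 FPKM. Of the brown adipocyte list, *Cidea* and *Elovl3*, also known from sebaceous glands, were higher in both 7KC-IMQ libraries and made up most of the list's sum of 185 and 169 against 238 and 246 FPKM, whereas *Dio2* (2.79 and 7.73 against 3.27 and 3.07 FPKM) and *Zic1* (4.204 and 5.308 against 3.37 and 4.95 FPKM) overlapped with a lower mean of log2 values. White adipocyte markers (10 genes) summed to 1766 and 2661 against 2574 and 2031 FPKM and overlapped, as did smooth muscle and red blood cell markers. The part of these cell types in the results that follow was not tested.

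Most respiratory chain genes had a slightly higher mean in 7KC-IMQ skin. The mean of log2(FPKM + 1) was higher in 73 of the 90 genes and lower in 17. It was also higher in 7739 of the 15896 genes tested and in 1297 of the 1896 genes of at least 50 FPKM. The median log2 difference of the 90 genes was 0.15 (1.11-fold), against -0.0056 over the genes tested and 0.09 over genes of at least 50 FPKM. The members' median per library varied within the groups by an SD of 0.0767, and the median difference was 0.0646 with equal FPKM sums and 0.0541 after quantile normalization. Among complexes I to V, the proton-driven ATP synthase (complex V) and complex III had the highest medians. The muscle isoforms *Cox6a2* and *Cox8b* were among the few lower genes. No single gene passed the test. By limma, 0 of the 90 genes had an adjusted p under 0.05, the smallest being 0.356 (0.297 to 0.969 across the alternatives), and among all genes tested 0.00629% were called.

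At an unadjusted p under 0.05, 11 of the 90 genes (12.2%) were higher and 2 (2.22%) lower, against 7.5% and 5.47% of all genes tested. Both 7KC-IMQ libraries exceeded both Cont-IMQ libraries in 51 genes (56.7%), and lay below both in 5 genes (5.56%). Among all genes tested these shares were 23.9% higher and 22.9% lower. With 2 libraries a group, the smallest two-sided p that exact permutation allows is 0.333, so separation of this kind is a description. As this is bulk tissue, fewer or more cells of a type and less or more RNA per cell cannot be told apart.

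The libraries did not contribute equally. Cont-IMQ replicate 2 held the lowest value in 56 of the 90 genes, and 7KC-IMQ replicate 2 the highest in 62. The median deviation from each gene's own mean was -0.0249 in Cont-IMQ replicate 1 and -0.1149 in replicate 2, and 0.0086 in 7KC-IMQ replicate 1 and 0.1329 in replicate 2, so Cont-IMQ replicate 1 and 7KC-IMQ replicate 1 lay close together. Without 7KC-IMQ replicate 2, no gene was higher at an unadjusted p under 0.05 and the median difference was 0.08, and without Cont-IMQ replicate 2, 1 gene was higher and the median was 0.10. Without 7KC-IMQ replicate 1, 4 genes were higher, with a median of 0.21. The 2 genes lower at this threshold were no longer so without Cont-IMQ replicate 1 or without 7KC-IMQ replicate 1, where the count was 0.

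**Figure D1:**
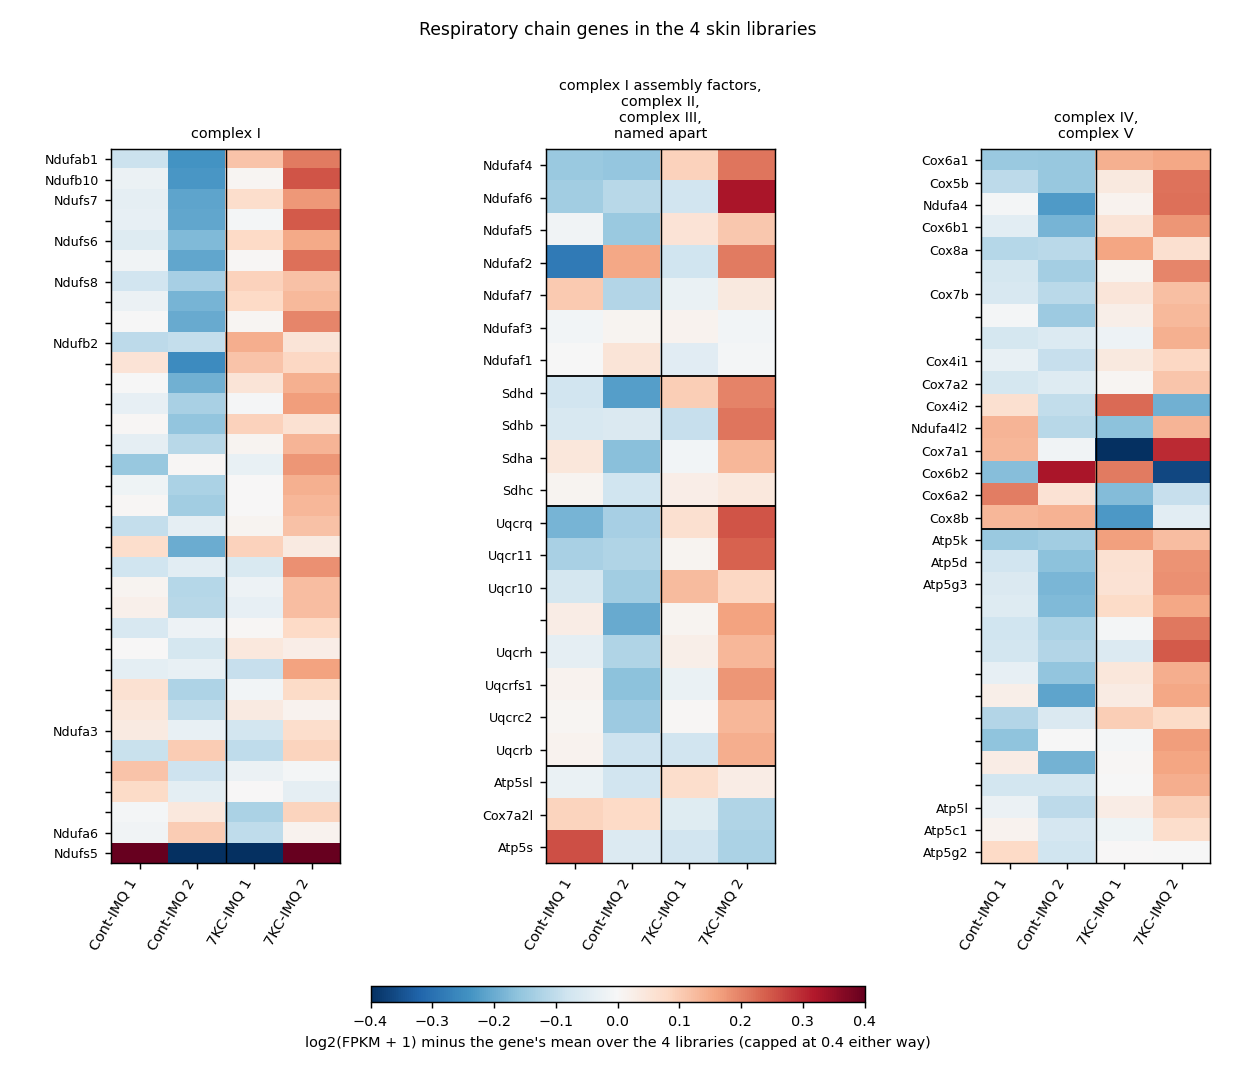
Each row is a respiratory chain gene (89 are drawn, and those described in the text carry their names) and each column a library, and the color is log2(FPKM + 1) minus the gene's mean over the 4 libraries, capped at 0.4 in either direction. Most rows run from blue in the Cont-IMQ libraries to red in 7KC-IMQ replicate 2, while *Cox6a2*, *Cox8b* and *Cox7a2l* run the other way and *Ndufs5* alternates.

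The level of a gene moved with the result. The respiratory chain genes are abundant, with a median of 152 FPKM (1.18 to 845), and 75 of them had at least 50 FPKM. Among the 1896 genes of at least 50 FPKM, 44.1% were higher without overlap and 13.9% lower, and their median log2 difference was 0.09, whereas of the 75 respiratory chain genes of that level 45 were higher and 3 lower (4.0%), with a median of 0.15. At an unadjusted p under 0.05 the order was the opposite, with 18.1% of the abundant genes and 13.3% of the abundant respiratory chain genes higher. The summed FPKM of the 90 genes was 18650 and 17660 in Cont-IMQ skin and 19470 and 21080 in 7KC-IMQ skin, or 2.87%, 2.80%, 2.97% and 3.00% of each library's total.

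The transcripts are also short, with a median length of 748 bases over the 89 genes found in the annotation. Genes under 1000 bases and of at least 50 FPKM that are not respiratory chain genes (435 genes) were higher without overlap in 45.7% and lower in 10.1%, with a median of 0.08. The 77 genes of cytosolic ribosomal proteins, which are short and abundant, were higher in 39.0% and lower in 7.79%, with a median of 0.05. These sets were chosen after the values were seen, and the part of level and length in the difference was not tested.

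**Figure D2:**
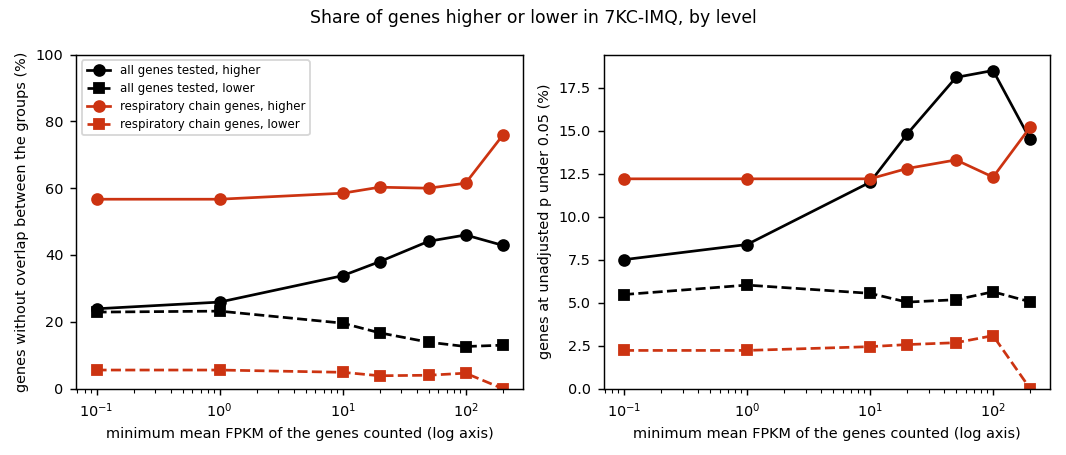
The left panel shows the percentage of genes whose 7KC-IMQ libraries both lay above (circles) or below (squares) both Cont-IMQ libraries, and the right panel the percentage at an unadjusted p under 0.05, for genes above each minimum mean FPKM (log axis). The share of all genes that were higher without overlap climbs from 23.9% to 44.1% at 50 FPKM, where 45 of 75 respiratory chain genes are higher, and in the right panel all genes lie above the respiratory chain genes from 20 to 100 FPKM.

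The size of the difference depended on the scaling. After each library was brought to the same FPKM sum, the median log2 difference was 0.06 (-0.07 over all genes), 39 of the 90 genes were higher without overlap and 11 lower (15% and 32.1% of all genes), and 3 were higher and 3 lower at an unadjusted p under 0.05. The distance between the median of the 90 genes and that of all genes was 0.131 with equal sums, 0.152 as deposited and 0.0581 after quantile normalization. After quantile normalization the median was 0.05 (-0.0040 over all genes), 31 genes were higher and 11 lower without overlap (23.1% and 22.1% of all genes), and again 3 were higher and 3 lower at that threshold. The corresponding shares of genes of at least 50 FPKM were 29.6% higher and 23.6% lower with equal sums, and 28.5% and 24.6% after quantile normalization. By complex, the median with equal sums was 0.0503 for complex I, 0.0406 for complex II, 0.0825 for complex III, 0.0423 for complex IV and 0.1038 for complex V. After quantile normalization these were 0.0352, 0.0223, 0.0653, 0.0535 and 0.0741. The complex I assembly factors had 0.0492 with equal sums and 0.0918 after quantile normalization, the latter above every complex.

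**Figure D3:**
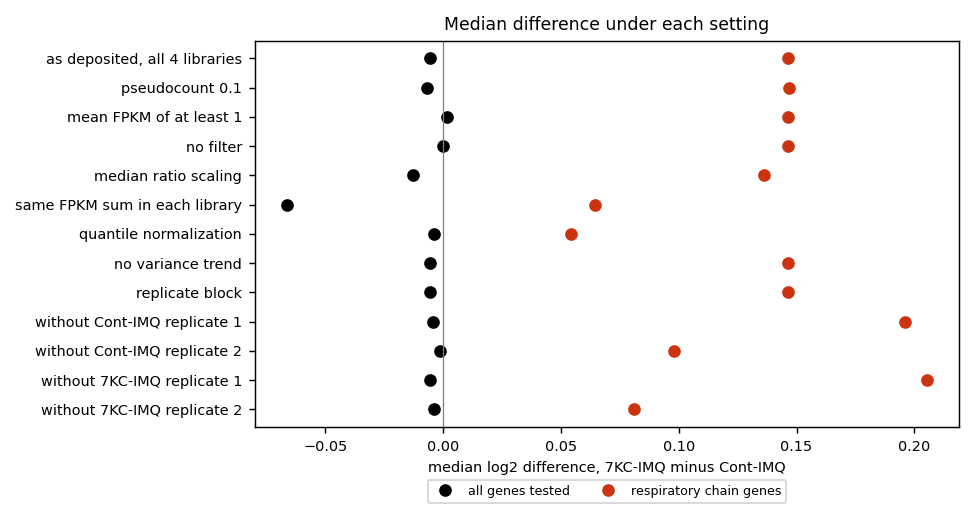
Points are the median log2 difference (7KC-IMQ minus Cont-IMQ) of the 90 respiratory chain genes in red and of all genes tested in black, under each setting. The red points stay to the right of the black ones in every setting shown, between 0.05 after quantile normalization and 0.21 without 7KC-IMQ replicate 1.

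In the following, values of Cont-IMQ replicates 1 and 2 stand before those of 7KC-IMQ replicates 1 and 2, a value after FPKM in parentheses is the log2 difference (7KC-IMQ minus Cont-IMQ) with its standard error (SE) from limma, and a gene is called separated where the libraries of the groups did not overlap. Complex I, which oxidizes NADH, had 36 genes, with 7.57 FPKM (*Ndufs5*) to 271 FPKM (*Ndufa3*) and a median of 122 FPKM. The mean was higher in 28 and lower in 8, and the median log2 difference was 0.13. Without overlap, 19 (52.8%) were higher and 0 lower. For this and the other complexes, the shares of all genes tested were 23.9% higher and 22.9% lower. Among genes of at least 50 FPKM they were 44.1% and 13.9%. A higher mean was seen in 7739 of the 15896 genes tested and in 1297 of the 1896 genes of at least 50 FPKM. *Ndufab1*, the mitochondrial acyl carrier protein, had the highest difference, with 74.6 and 67.0 FPKM in Cont-IMQ skin and 85.8 and 91.7 FPKM in 7KC-IMQ skin (log2 difference 0.32, SE 0.088, adjusted p = 0.356, limma). Its gene lies at 122085403 to 122101886 on the minus strand of chromosome 7 (GRCm38).

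Of the iron-sulfur subunits of complex I, *Ndufs8* had 97.9 and 94.0 FPKM in Cont-IMQ skin against 110.1 and 112 FPKM in 7KC-IMQ skin (0.21, SE 0.069). *Ndufs7* had 108 and 95.2 FPKM against 116 and 125 FPKM (0.25, SE 0.094). Both were separated between the groups. Of the accessory subunits, *Ndufs6* had 166 ± 10.2 against 195 ± 6.84 FPKM (SD, n = 2, 0.23, SE 0.083), *Ndufb2* 98.9 and 99.6 against 118 and 110.4 FPKM (0.20, SE 0.073), and *Ndufb10* 199 and 173 against 204 and 242 FPKM (0.26, SE 0.126). The adjusted p of these 5 genes was 0.365 to 0.472.

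Not all complex I genes followed. The accessory subunit *Ndufa6* had 176 and 191 against 166 and 179 FPKM (-0.09, SE 0.087), and *Ndufa3*, the most abundant, 277 and 265 against 257 and 284 FPKM (-0.0051, SE 0.089). The groups overlapped in both.

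*Ndufs5* could not be read on its own. Its listed values were 24.2 and 0.00297 FPKM in Cont-IMQ skin and 0.00149 and 6.03 FPKM in 7KC-IMQ skin (-0.92, SE 1.79), a spread seen in no other member. Of the 75-base stretches of its transcripts, 15.7% also occur in *BC002163*, a near copy, which had 94.1 and 118 FPKM against 120 and 127 FPKM. Summed, the 2 genes had 118, 118, 120 and 133 FPKM, so the library with the highest *Ndufs5* value had the lowest *BC002163* value.

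Assembly factors named after complex I (7 genes) were far less abundant than the subunits, at 4.09 to 21.5 FPKM. *Ndufaf4* was separated, with 7.22 and 7.18 FPKM in Cont-IMQ skin and 8.71 and 9.57 FPKM in 7KC-IMQ skin (0.30, SE 0.096, adjusted p = 0.365, limma). *Ndufaf5* (4.03 and 3.58 against 4.27 and 4.48 FPKM, 0.16), and *Ndufaf6* (4.69 and 4.82 against 4.94 and 6.87 FPKM, 0.25) were also higher without overlap. *Ndufaf1* had 10.7 and 11.1 against 10.3 and 10.6 FPKM (-0.05), below the Cont-IMQ libraries in both. *Ndufaf2* (17.4 and 23.8 against 20.1 and 24.8 FPKM), *Ndufaf3* (10.9 ± 0.133 against 10.9 ± 0.150 FPKM, SD, n = 2) and *Ndufaf7* (7.67 and 6.44 against 6.91 and 7.28 FPKM) overlapped.

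Complex II, succinate dehydrogenase, is also an enzyme of the citric acid cycle and is encoded in the nucleus throughout. Its 4 genes lay within a narrow range of 83.9 to 117 FPKM and had a median difference of 0.12. *Sdhd*, a membrane anchor, had 82.3 and 74.4 FPKM in Cont-IMQ skin and 93.0 and 99.7 FPKM in 7KC-IMQ skin (0.30, SE 0.087, adjusted p = 0.356, limma). The other anchor, *Sdhc*, had 90.4 and 84.7 against 91.2 and 92.2 FPKM (0.07, SE 0.073), and both anchors were separated.

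The catalytic subunits of complex II overlapped between the groups. The flavoprotein *Sdha* had 86.4 and 74.3 FPKM against 82.9 and 91.8 FPKM (0.12, SE 0.108). The iron-sulfur protein *Sdhb* had 112 FPKM in both Cont-IMQ libraries and 109.5 and 136 FPKM in the 7KC-IMQ libraries (0.12, SE 0.121).

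Complex III, which hands electrons to cytochrome c, had 8 genes, all with a higher mean in 7KC-IMQ skin (7 of them after rescaling to equal sums or quantile normalization), a median of 0.16 and 4 separated. *Uqcrq* led, with 317 and 329 FPKM in Cont-IMQ skin and 377 and 429.6 FPKM in 7KC-IMQ skin (0.32, SE 0.098, adjusted p = 0.364, limma). The other small subunits *Uqcr11* (436 and 439 against 481 and 562 FPKM, 0.25) and *Uqcr10* (351 and 335 against 403 and 392 FPKM, 0.21) and the hinge protein *Uqcrh* (476 and 448 against 495 and 535 FPKM, 0.16) were separated too. The Rieske iron-sulfur protein *Uqcrfs1* (115 and 101 against 111 and 128 FPKM), the core protein *Uqcrc2* (112 and 101 against 112 and 122 FPKM) and *Uqcrb* (321 and 300.0 against 301 and 352 FPKM) were not.

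Complex V, the ATP synthase, had the highest median difference (0.19) and the largest share of separated genes (11 of 15, 73.3%, none lower). Its genes spanned 172 to 764 FPKM. *Atp5k*, subunit e of the membrane part, was the most abundant and had 685 and 690.5 FPKM in Cont-IMQ skin against 852 and 828 FPKM in 7KC-IMQ skin (0.29, SE 0.087, adjusted p = 0.360, limma). *Atp5d*, a subunit of the central stalk, had 301 and 283 against 331 and 359.8 FPKM (0.24, SE 0.088).

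The 3 genes *Atp5g1*, *Atp5g2* and *Atp5g3* encode the same mature ring subunit c. *Atp5g3* had 402 and 368 against 435 and 475 FPKM (0.24, SE 0.097) and was separated. *Atp5g2* had 367 and 329 against 348 and 347 FPKM, a difference of -0.0001 (SE 0.091), and 35.8% of its 75-base stretches also occur in other genes. The gamma subunit *Atp5c1* (247 and 234 against 242 and 257 FPKM, 0.05) also overlapped, whereas *Atp5l*, subunit g (518 and 490.3 against 538 and 565 FPKM, 0.13), was separated.

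**Figure D4:**
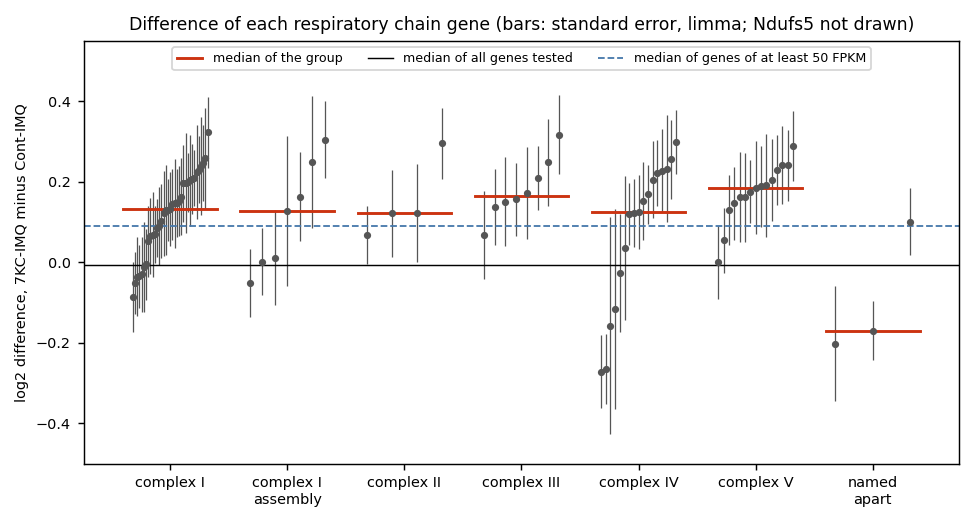
Each point is a gene, placed by its complex, with the log2 difference between the groups and its standard error from limma on the vertical axis; red lines are the medians, the black line is the median of all genes tested and the dashed line that of genes of at least 50 FPKM. Points of complexes III and V lie from about 0 upward, complex IV reaches from -0.27 (*Cox8b*) to 0.30 (*Cox6a1*), and *Ndufs5* (-0.92) is counted in the complex I median but not drawn.

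Complex IV, cytochrome c oxidase, had members on both sides. In 11 of its 17 genes (64.7%) both 7KC-IMQ libraries were higher and in 2 (11.8%) both were lower, with a median of 0.12. *Ndufa4*, now counted as a complex IV subunit, was the most abundant respiratory chain gene, with 836 and 719 FPKM in Cont-IMQ skin and 848 and 979 FPKM in 7KC-IMQ skin (0.23, SE 0.132). *Cox5b* had 381 and 368 against 420.5 and 476 FPKM (0.26), *Cox6b1* 549.6 and 497 against 587 and 639 FPKM (0.23), and *Cox7b* 147 and 142 against 158 and 167 FPKM (0.17). *Cox4i1*, the general form of subunit 4, had 589.8 and 566 against 619 and 638 FPKM (0.12). These genes of general use were all separated, with an adjusted p of 0.385 to 0.592.

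Some complex IV subunits have a general form and a form of heart and skeletal muscle, and for subunits 6a and 8 the forms lay on opposite sides. The general form *Cox6a1* had 443 and 441 FPKM in Cont-IMQ skin and 541 and 547 FPKM in 7KC-IMQ skin, that is 442 ± 1.00 against 544 ± 3.63 (SD, n = 2), with the smallest unadjusted p of the 90 genes (0.30, SE 0.079, adjusted p = 0.356, limma). The muscle form *Cox6a2* had 147 and 132 FPKM against 112 and 119 FPKM, or 139 ± 10.2 against 116 ± 4.78 (-0.26, SE 0.087, adjusted p = 0.365, limma). The 2 pairs of libraries did not overlap in either gene.

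The same order was seen for subunit 8. *Cox8a*, the general form, had 379 and 380.2 FPKM in Cont-IMQ skin and 457 and 429 FPKM in 7KC-IMQ skin (0.22, SE 0.083, adjusted p = 0.381, limma). *Cox8b*, of muscle and brown fat, had 138 and 139 against 107 and 122 FPKM (-0.27, SE 0.090, adjusted p = 0.365, limma). For subunit 7a, *Cox7a2* had 173 and 175 against 182 and 196 FPKM (0.12), and the muscle form *Cox7a1* had 91.0 and 82.1 against 62.0 and 102 FPKM (-0.12, SE 0.248), with the 7KC-IMQ libraries on both sides of the controls.

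Ratios within a library do not depend on a factor that multiplies all its values. *Cox6a2* amounted to 33.1% and 29.95% of *Cox6a1* in the Cont-IMQ libraries and to 20.8% and 21.8% in the 7KC-IMQ libraries (log2 difference of the ratio -0.57, SD 0.080). *Cox8b* amounted to 36.5% of *Cox8a* in both Cont-IMQ libraries and to 23.5% and 28.5% in the 7KC-IMQ libraries (-0.50, SD 0.141). In both pairs every 7KC-IMQ library lay below every Cont-IMQ library (exact permutation test, two-sided, p = 0.333, the smallest the design allows, 0.667 after adjustment over 6 pairs). The general form was already higher and the muscle form lower without overlap. The ratios therefore had to separate, and their separation is not a further result.

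*Cox7a1* amounted to 52.7%, 46.8%, 34.0% and 52.1% of *Cox7a2*, again with the Cont-IMQ libraries first, and the groups overlapped. *Ndufa4l2*, a paralog known to be induced in hypoxia, had 246 and 207 FPKM against 199.5 and 246 FPKM, or 29.4%, 28.8%, 23.5% and 25.1% of *Ndufa4* (-0.26, SD 0.049, exact permutation p = 0.333). The ratio was separated while the level of *Ndufa4l2* itself was not (-0.03, SE 0.146). *Cox4i2* (1.26 and 1.02 against 1.53 and 0.895 FPKM) and *Cox6b2* (2.96 and 4.59 against 4.15 and 2.46 FPKM), rare forms of subunits 4 and 6b, overlapped. *Cox4i2* had an estimated 7 to 13 reads and *Cox6b2* 9 to 16.

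**Figure D5:**
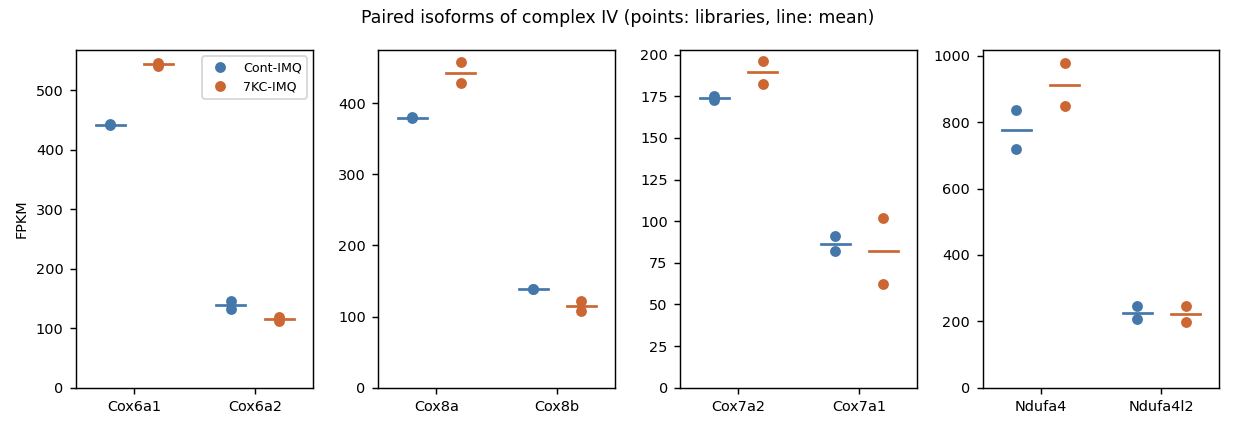
Points are the FPKM of the 2 libraries of each group and lines are their means, for 4 pairs of complex IV genes; all vertical axes start at 0. *Cox6a1* and *Cox8a* lie higher and their muscle partners *Cox6a2* and *Cox8b* lower in 7KC-IMQ skin, while *Cox7a1* spreads from 62.0 to 102 FPKM within that group.

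The muscle forms were set beside the markers of skeletal muscle. The 17 markers, none at 0, summed to 12030 and 11030 FPKM in Cont-IMQ skin and to 9824 and 11690 FPKM in 7KC-IMQ skin, so that the groups overlapped. Of the 17, 3 (*Acta1*, *Myh1* and *Ttn*) were lower without overlap and 2 higher. Among all genes tested 22.9% were lower and 23.9% higher, and among genes of at least 50 FPKM 13.9% and 44.1%. The most abundant marker, skeletal actin *Acta1*, had 2848 and 3133 against 2106 and 2583 FPKM. The fast myosin *Myh4* had 125 and 62.9 against 427 and 329 FPKM, creatine kinase *Ckm* was the other gene higher without overlap (0.19), and the median difference of the list was 0.09. Per 1000 FPKM of these markers, *Cox6a2* had 12.2, 12.0, 11.4 and 10.2 FPKM and *Cox8b* 11.5, 12.6, 10.9 and 10.5 FPKM, with the Cont-IMQ libraries given first. Both remained lower in the 7KC-IMQ libraries on this scale. The distance depends on the markers summed, as *Acta1* (-0.36) was itself lower and *Ckm* higher. *Cox7a1* had 7.56, 7.44, 6.31 and 8.74 FPKM. The share of the muscle sheet in each sample was not tested. *Ucp1*, the defining gene of brown fat, was at or below 0.0457 FPKM.

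Promoter sequences of 3 of these genes, picked after their values were seen, are given as examples of a separated general and muscle form. They are RefSeq windows of 250 bases before to 50 bases after the start of the gene (GRCm38.p6), all on the minus strand and written 5′ to 3′. Capitals mark the letters CCGGAAG (the ETS motif bound by GABP) and GCGCATGC (the NRF1 motif) or their reverse complements. The windows are chr5:115348909-115349208 for *Cox6a1*, chr19:7217567-7217866 for *Cox8a* and chr7:140900397-140900696 for *Cox8b*.
Cox6a1: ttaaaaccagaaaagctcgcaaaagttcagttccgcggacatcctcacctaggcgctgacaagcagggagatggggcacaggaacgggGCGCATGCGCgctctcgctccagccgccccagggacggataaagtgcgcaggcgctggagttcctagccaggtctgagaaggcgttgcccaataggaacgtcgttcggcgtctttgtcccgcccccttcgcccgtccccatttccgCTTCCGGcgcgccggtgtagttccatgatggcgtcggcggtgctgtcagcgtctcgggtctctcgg
Cox8a: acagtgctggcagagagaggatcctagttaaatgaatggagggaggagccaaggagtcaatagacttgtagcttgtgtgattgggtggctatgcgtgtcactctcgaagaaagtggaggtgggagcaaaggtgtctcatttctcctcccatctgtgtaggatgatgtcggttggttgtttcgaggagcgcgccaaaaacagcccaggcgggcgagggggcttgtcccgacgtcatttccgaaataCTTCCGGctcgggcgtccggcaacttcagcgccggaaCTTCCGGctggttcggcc
Cox8b: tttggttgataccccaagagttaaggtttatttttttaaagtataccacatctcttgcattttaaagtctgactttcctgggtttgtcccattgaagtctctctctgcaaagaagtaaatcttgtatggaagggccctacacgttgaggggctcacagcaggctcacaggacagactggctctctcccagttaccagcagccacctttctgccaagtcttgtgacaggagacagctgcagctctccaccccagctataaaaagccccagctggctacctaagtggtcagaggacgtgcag
The *Cox6a1* window holds the NRF1 letters on both strands in 1 overlapping stretch and the ETS letters once, the *Cox8a* window holds the ETS letters at 2 places, and neither motif was found in the *Cox8b* window. Neither was found in the windows of the general form *Cox7a2* or of its muscle partner *Cox7a1*, and *Cox6a2* was not matched.

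Such letters were searched on both strands in the windows of the 75 of the 90 genes that could be matched by name to a RefSeq window. The NRF1 letters were found in 12 (16.0%), against 3.94% of 17492 protein-coding genes, and the ETS letters in 17 (22.7%), against 12.95%. AAGATGGC, the letters of the YY1 motif, were found in 11 (14.7% against 3.57%), and CAAGGTCA, bound by estrogen-related receptors, in 4 (5.33% against 1.56%). NRF1, GABP, YY1 and estrogen-related receptors are known activators of respiratory chain genes. A match is a description of the sequence and was not tied to the differences between the groups.

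Of the 3 genes named after a complex but acting beside it, 2 were lower and 1 higher in 7KC-IMQ skin. *Cox7a2l*, a factor that joins complexes III and IV into supercomplexes, had 203 and 202 FPKM in Cont-IMQ skin and 185 and 176 FPKM in 7KC-IMQ skin (-0.17, SE 0.073, adjusted p = 0.428, limma), and 10.4% of its 75-base stretches occur in other genes. *Atp5s*, a coupling factor, had 5.29 and 4.06 against 3.99 and 3.82 FPKM (-0.20, SE 0.143). *Atp5sl*, involved in the assembly of complex I, had 11.2 and 10.8 against 12.1 and 11.7 FPKM (0.10, SE 0.084). The groups were separated in each of the 3.

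Genes that work with the respiratory chain were taken from lists compiled by hand, of which no gene passed an adjusted p under 0.05. Of 8 electron carriers and subunits outside the symbol rule, 5 were higher and 1 lower without overlap (median 0.16), led by *Cyc1*, the cytochrome c1 of complex III, with 152 and 137 against 175 and 181 FPKM (0.30, SE 0.087). Cytochrome c (*Cycs*) had 57.9 and 58.4 against 65.8 and 77.6 FPKM (0.29). Of 38 assembly factors outside the rule, 14 were higher and 5 lower (median 0.05, and -0.02 after rescaling to equal sums). Beside both lists, 23.9% of all genes tested were higher and 22.9% lower. Beside the assembly factors, 33.8% of genes of at least 10 FPKM were higher and 19.6% lower. For the more abundant carriers and subunits, the shares of genes of at least 50 FPKM were 44.1% and 13.9%. *Cox10*, an enzyme of heme a synthesis, had 6.97 and 6.17 against 8.35 and 10.1 FPKM (0.43), and *Uqcc3*, a complex III assembly factor, 30.8 and 27.3 against 23.0 and 22.3 FPKM (-0.34).

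Genes of mitochondrial translation and import had larger medians than the respiratory chain itself. Of 77 genes of the mitochondrial ribosome, 54 were higher and 1 lower without overlap (median 0.18, and 0.0981 with equal sums), and 25 were higher at an unadjusted p under 0.05. The shares of all genes tested were 23.9%, 22.9% and 7.5%, and those of genes of at least 20 FPKM 38.0%, 16.7% and 14.8%. *Mrps22* had 19.0 and 17.8 against 24.4 and 27.0 FPKM (0.46, SE 0.090), and *Mrps18b* 35.6 and 38.2 against 49.8 and 50.5 FPKM (0.43, SE 0.075). Of 20 genes of import, carriers and the inner membrane, 15 were higher and 0 lower (median 0.24, and 0.158 after quantile normalization). At an unadjusted p under 0.05, 10 of the 20 were higher. Of genes of at least 50 FPKM, 44.1% were higher and 13.9% lower without overlap, and 18.1% higher at that threshold. The import pore *Tomm40* had 58.9 and 54.4 against 70.6 and 81.1 FPKM (0.41, SE 0.0998) and the chaperonin *Hspd1* 127 and 142 against 164 and 186 FPKM (0.38, SE 0.104).

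Fuel enzymes did not share a direction. Of 18 genes of the citric acid cycle and pyruvate dehydrogenase, 9 were higher and 0 lower without overlap (median 0.11, and 0.0264 with equal sums), where genes of at least 50 FPKM were higher in 44.1%. *Mdh2*, malate dehydrogenase, had 269.7 and 255 against 309 and 335 FPKM (0.29, SE 0.086). Of 16 genes of mitochondrial fatty acid oxidation, 0 were higher and 10 lower (median -0.12), 3 of them at an unadjusted p under 0.05. Among all genes tested 23.9% were higher and 22.9% lower, and among genes of at least 20 FPKM 38.0% and 16.7%. At that p threshold 5.47% of all genes tested and 5.03% of genes of at least 20 FPKM were lower. The median of the 16 genes stayed negative under every scaling tried (-0.20 with equal sums). The lowest were the forms of carnitine palmitoyltransferase 1, which commits fatty acids to entry into mitochondria. *Cpt1b*, the muscle form, had 22.5 and 20.5 against 14.6 and 16.8 FPKM (-0.43, SE 0.106), and *Cpt1a* 33.7 and 29.1 against 24.7 and 23.8 FPKM (-0.36, SE 0.098), both with an adjusted p of 0.356 (limma).

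Of 16 regulators of mitochondrial biogenesis, 8 were higher and 2 lower without overlap, against 23.9% and 22.9% of all genes (median 0.11, and 0.0368 with equal sums). The coactivators *Ppargc1b* and *Ppargc1a*, both at low levels, lay on opposite sides. *Ppargc1b* had 2.70 and 2.49 against 3.83 and 3.05 FPKM (0.30, adjusted p = 0.439, limma). *Ppargc1a* had 0.910 and 1.16 against 0.619 and 0.891 FPKM (-0.22, adjusted p = 0.560, limma). The more abundant *Pprc1* had 14.75 and 15.43 against 17.95 and 17.69 FPKM (0.23, adjusted p = 0.368, limma). At an unadjusted p under 0.05, 1 regulator (*Pprc1*) was higher and 0 lower, as were 3 and 0 of the carriers. Of the citric acid cycle genes these counts were 3 and 0, and of the assembly factors 2 and 1. At that threshold 7.5% of all genes tested were higher and 5.47% lower, and 18.1% and 5.17% of genes of at least 50 FPKM. The 13 subunits encoded in mitochondrial DNA were not analysed here.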

How the data were processed

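RNA sequence analysis was performed by the authors on total RNA of dorsal skin using stranded mRNA libraries and 75-base single-end reads, mapped to mm10 using TopHat, Bowtie2 and SAMtools. The deposited values are FPKM per gene, made by the authors with Cufflinks, one table per library; the submitters' processing notes name TopHat2 2.1.1, Bowtie2 2.2.8, SAMtools 0.1.18 and Cuffdiff 2.2.1. How reads that map to several genes were shared out is not given in the sources used here. Read counts were not used, so no count model was fitted. Depth was estimated as the number of reads that brings low genes with a single transcript closest to whole reads (74.2% to 78.2% of 395 to 431 genes within 0.1 read, against 20% by chance, for an assumed fragment of 200 bases), and this covers counting error only.

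Values were transformed to log2(FPKM + 1) without further scaling. Differences on this scale understate the change of low genes. The 15896 genes that averaged 0.1 FPKM or more were compared using limma 3.58.1 in R 4.3.3 (lmFit, eBayes with a variance trend) with Benjamini-Hochberg adjustment at 0.05 over all of them, 2 libraries against 2. The procedure was tested on simulated data. Groups came from the sample labels. Alternatives changed the pseudocount (0.1), the filter (mean FPKM of 1, or none), the scaling (median ratio, equal FPKM sums, quantiles) or the model (variance without trend, replicate block), or left out each library in turn.

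The respiratory chain genes, the pathway lists and the marker lists were chosen with earlier results of these data known. Sets by level and length, ratios within a library and per muscle marker, the sum of *Ndufs5* and *BC002163*, and the medians and separated counts under other scalings were added after the data were seen. Named genes were the complex IV isoforms, the Sdh genes, the 3 highest and 3 lowest differences and the most abundant gene of each complex, and the 15 smallest p-values. Of each pathway list at most the 2 highest and 2 lowest differences were named, and of the marker lists the most abundant genes. *Ucp1*, *Dio2*, *Myh4*, *Myh1*, *Ttn*, *Ckm*, *Atp5g1* and *Pprc1* were named outside this rule. Gene positions, lengths and the share of 75-base windows found in another gene came from GENCODE M21 (GRCm38), and promoter windows from RefSeq (GRCm38.p6). Values of 1 gene are not reported here, although it is counted among the 90. *Flg* and *Ly6g*, 2 of the marker genes, were not found in the files used here.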

Additional observations from a re-analysis of the deposited data

How the results depend on the processing

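Of 600 values (50 named genes under 12 alternatives), 569 kept their direction and 31, of 14 genes, did not. None of the 90 genes reached an adjusted p under 0.05 in any of the alternatives. At an unadjusted p under 0.05, the main 11 higher and 2 lower genes became 3 higher with equal FPKM sums, 3 higher after quantile normalization, 6 higher and 0 lower without a variance trend, and 0 to 11 higher and 0 to 2 lower when a library was left out, where the lone library is assumed to vary like the other group. With no filter there were 14 higher and 2 lower. The median difference of the 90 genes (0.15) was 0.0646 with equal sums and 0.0541 after quantile normalization, and 0.0810 to 0.2055 without a library. Separated genes, 51 higher and 5 lower as deposited, were 31 higher after quantile normalization and 11 lower both there and with equal sums; no such count was made with a library left out or for settings that leave the order of values unchanged.

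With the replicate block, 6 genes were higher and 1 lower at an unadjusted p under 0.05, and the smallest adjusted p was 0.450. The labels do not say that a number pairs the libraries, and the deviations of same-numbered libraries from their group means correlated by r = 0.0651 over 15896 genes, which are not independent replicates. With only 2 libraries a group this pairing could not be judged further.

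Directions turned with equal FPKM sums for *Atp5c1* (-0.0276), *Cox4i2* (-0.0037), *Ndufaf3* (-0.0735), *Ndufaf7* (-0.0606), *Sdhc* (-0.014) and *Uqcrb* (-0.0136), after quantile normalization for *Atp5c1* (-0.0198), *Sdhc* (-0.0257) and *Uqcrb* (-0.0115), and after median ratio scaling for *Ndufaf3* (-0.0077). The cause was not tested. With a library left out, the difference ranged from -0.0789 to 0.0787 for *Atp5g2*, -0.173 to 0.2451 for *Cox4i2*, -0.4427 to 0.1285 for *Cox6b2*, -0.4723 to 0.2398 for *Cox7a1*, -0.0774 to 0.0672 for *Ndufa3*, -0.1762 to 0.1228 for *Ndufa4l2*, -0.0905 to 0.3462 for *Ndufaf2*, -0.0112 to 0.0144 for *Ndufaf3*, -0.0997 to 0.1218 for *Ndufaf7*, -3.2501 to 1.4036 for *Ndufs5*, -0.0313 to 0.2755 for *Sdhb* and -0.0436 to 0.1799 for *Uqcrb*. Depth limits *Cox4i2*, at an estimated 7 to 13 reads, and *Cox6b2*, at 9 to 16.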
